A study of Homo sapiens with 18 samples.

Results

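The introns described here are those whose excised share was still below 0.5 in RNA labelled for 60 min: 642 of the 21782 introns in the authors' intron table (2.95%), in 441 of its 4163 genes. The excised share, theta, compares reads across the exon-exon junction with reads across the exon-intron boundaries, so 1 means that every informative read came from spliced RNA and 0 that none did. The members were chosen by theta at 60 min, and that value is given only as a description. All 642 lay in the slowest of the 3 classes into which the authors sorted introns by theta over time.

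The RNA came from HEK293 cells, an established human embryonic kidney line that also carries transcripts of neuronal type. The medium held 500 µM 4-thiouridine, which is built into newly made RNA in place of uridine, for 7.5, 15, 30, 45 or 60 min, with 3 libraries of streptavidin-purified labelled RNA per time, 15 in all. Total RNA without streptavidin selection gave 3 more libraries, 1 each by poly(A) selection, RNase H depletion and Ribo-Zero depletion of ribosomal RNA. No other treatment or genotype was compared, and the labels do not state whether the 3 libraries of a time are separate cultures. The p-values therefore reflect library-to-library spread only, possibly technical. Mature TPM of VIM, a marker of the line, were 228 to 371 in the labelled libraries, those of INA, a neuronal intermediate filament gene, 7.14 to 21.9 and those of NEFM, another one, 0 to 2.4, while the T cell gene CD3E and the globin gene HBB were at 0. Some other markers of other cell types were detected: the globin gene HBA1 was at 0 to 17.4 TPM and the collagen gene COL1A1 at 0.26 to 5.78 TPM in labelled libraries, and their part in the results was not tested. The deposited theta are means over 3 replicates without replicate values, so no error can be given for a single intron, and the number of reads behind each value is unknown beyond the authors' minimum of more than 5 reads in every replicate.

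Most introns are removed while the RNA is still being made or within minutes of its release. Some stay in polyadenylated transcripts: retained introns are kept in a stable isoform, and detained introns are held in nuclear RNA that can be spliced later or degraded. Short length, high GC content and weak splice sites are the features classically tied to intron retention, and genes for splicing factors are well known hosts of such introns.

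Splice sites of 5 members are shown first, each beside the best excised intron of the same gene whose sequence could be read, because the pairs show how far a member and its gene-mate can differ within 1 gene. The pairs were chosen after the values were seen, as the lowest members with a readable gene-mate. The bases come from GENCODE 29 transcripts that contain the whole intron (the same transcript for both introns of CDK16, different ones in the other 4 pairs), and positions are on hg19, as deposited. For the 5′ site, 3 exon bases stand in lower case and the first 6 intron bases in capitals. For the 3′ site, the last 20 intron bases end in a capital AG, followed by 3 exon bases. 
CDK16 intron 7, theta at 60 min 0.149, 5′ site: aaaGTGGGT
CDK16 intron 7, 3′ site: tgccattcctgggtccccAGctg
CDK16 intron 13, theta at 60 min 0.806, 5′ site: cagGTAGGT
CDK16 intron 13, 3′ site: tgctctgctttcccccacAGgca
SRSF5 intron 7, theta at 60 min 0.167, 5′ site: cagGTTTGT
SRSF5 intron 7, 3′ site: cacaattatcttgtgttaAGgat
SRSF5 intron 5, theta at 60 min 0.809, 5′ site: aagGTGAGA
SRSF5 intron 5, 3′ site: tttttcttccctttttgtAGggt
RPL10A intron 3, theta at 60 min 0.192, 5′ site: cagGTTGGC
RPL10A intron 3, 3′ site: tgctgtcccccaaaacgcAGgct
RPL10A intron 1, theta at 60 min 0.593, 5′ site: gagGTGAGT
RPL10A intron 1, 3′ site: ctgtcgcttctctcccgcAGcag
DDX39A intron 5, theta at 60 min 0.191, 5′ site: gatGTGAGT
DDX39A intron 5, 3′ site: ccacctcccttcccacacAGccc
DDX39A intron 2, theta at 60 min 0.603, 5′ site: aggGTACGC
DDX39A intron 2, 3′ site: acgctctgcttctcctgcAGtcc
SNHG5 intron 1, theta at 60 min 0.187, 5′ site: tagGTGAGT
SNHG5 intron 1, 3′ site: taaataccgatttcccgcAGgaa
SNHG5 intron 2, theta at 60 min 0.654, 5′ site: aagGTAAGA
SNHG5 intron 2, 3′ site: aatttacttttttttgttAGata

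In these names an intron's number is its order among the listed introns of the gene, from the 5′ end. CDK16, a cyclin-dependent kinase, has its member at chrX:47085427-47085677 on the plus strand, 251 nt long. Its MaxEnt scores, which rate how well a site matches known splice sites, were 3.99 (5′) and 5.88 (3′), against 10.28 and 12.92 in intron 13 (chrX:47088044-47088129). In SRSF5, an SR splicing factor, intron 7 (chr14:70235969-70237183, plus strand, 1215 nt) scored 7.44 and 5.41, and intron 5 (chr14:70235392-70235514) scored 8.68 and 11.21. RPL10A, a protein of the large ribosomal subunit, had scores of 5.52 and 5.01 in intron 3 (chr6:35436805-35437157, plus strand) and 10.03 and 9.93 in intron 1 (chr6:35436217-35436575). The pairs of DDX39A and SNHG5 did not follow that order. In DDX39A, an RNA helicase of mRNA export, the member (chr19:14520686-14521027, minus strand) had scores of 7.77 and 9.16, and its gene-mate (chr19:14523491-14523824) had 8.18 and 9. In SNHG5, a non-coding host of small nucleolar RNAs (snoRNAs), the member (chr6:86387907-86388411, minus strand) had the lower 5′ score, 8.83 against 10.57, but the higher 3′ score, 8.24 against 6.05 in its gene-mate (chr6:86387751-86387853).

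Sequence could be read in this way for 210 members, and all 210 began with GT and ended with AG. Of the 990 other introns with such sequence, 98.9% did. The first 6 intron bases were GTAAGT or GTGAGT, counted on the strand of the gene, in 50 members (23.8%) and in 278 other introns (28.1%). Such a match is a count of letters, not a measure of use.

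Over the 5 labelling times, the members' median theta first went down and then came back, while that of other introns went up throughout. In members it was 0.376 (7.5 min), 0.308 (15 min), 0.293 (30 min), 0.368 (45 min) and 0.429 (60 min). All other introns went from 0.546 through 0.584, 0.703 and 0.811 to 0.847. The other 3210 introns of the slow class began at the same level as the members, 0.373, and reached 0.661. At 7.5 min the middle 50% of members, 0.253 to 0.531, overlapped that of all other introns, 0.431 to 0.665. By 45 min the members' upper quartile, 0.431, lay below the lower quartile of the others, 0.715.

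**Figure D1:**
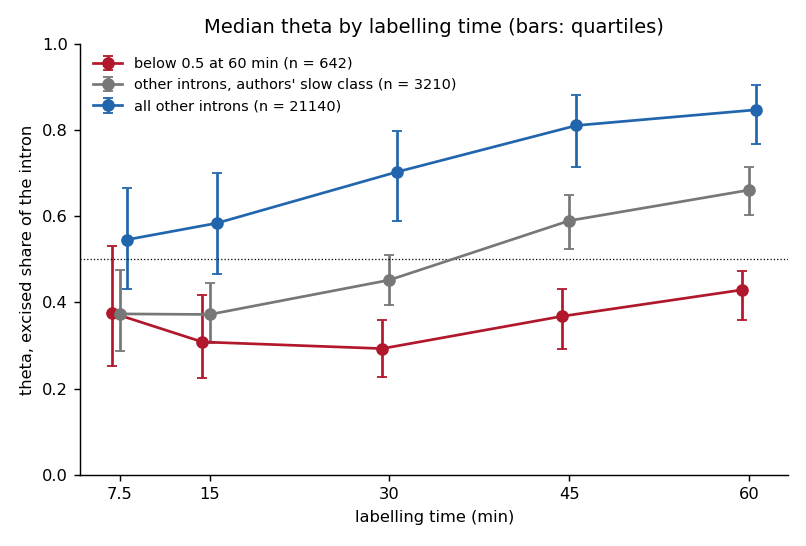
Median theta (points) and quartiles (bars) against labelling time in minutes for the introns below 0.5 at 60 min, the other introns of the authors' slow class and all other introns; points are shifted sideways for legibility. The members start with the slow class at 7.5 min, are lowest at 30 min and end at 0.429, where the rule that chose them keeps them below the dotted line at 0.5.

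The threshold was crossed late by few introns: 573 of the 642 members (89.3%) were already below 0.5 at 45 min, against 2.94% of the others, and 407 were below it at all 5 times. From 7.5 to 30 min, theta went down in 437 members (68.1%), in 17.1% of the others and in 32.9% of the other slow introns. Values at 30 and 45 min lie on the same course as the 60 min value that chose the members. These shares are therefore descriptions and not separate support. From 7.5 to 60 min theta was higher in 348 members and lower in 294, with gains of at least 0.1 in 231 and losses of at least 0.1 in 171. The rule holds members below 0.5 at 60 min, so these last counts describe the members and are not set against other introns. The low point often lay in the middle of the course: theta at 1 of the 3 middle times lay below both ends in 527 members (82.1%). The same was found in 40.4% of all other introns and in 58.7% of the other slow introns. The lowest of the 5 values fell at 30 min in 266 members (41.4%), against 8.72% of all other introns. It fell at 15 min in 188 members (29.3%), about as often as in all other introns (30.4%). These counts also use theta at 60 min, which the rule holds low in members. Only 35 members rose at every step and 6 fell at every step. With no replicate values, a change in a single intron cannot be set against its error.

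The largest losses described here were in genes of metabolism, translation and the mitochondrial ATP synthase, and in KRTCAP2. In intron 2 of APRT, an enzyme of purine salvage (chr16:88876965-88877957), theta was 0.717, 0.444, 0.200, 0.124 and 0.173 at the 5 times, a change of -0.54. Intron 1 of ATP5MF, a subunit of the mitochondrial ATP synthase (chr7:99056887-99057708), went from 0.752 to 0.257. Intron 7 of EIF3G, a translation initiation factor (chr19:10226751-10227475), went from 0.822 to 0.349, and intron 3 of KRTCAP2 (chr1:155142334-155145040) from 0.842 to 0.371. Each of these 4 was above the median of all other introns at 7.5 min and had lost most of that excised share by 30 min, when the values were 0.200 to 0.328.

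The 5 largest gains were in snoRNA hosts and in genes of RNA and ribosome production. Theta of intron 3 of EIF4A2, an RNA helicase of translation that hosts snoRNAs (chr3:186502486-186502750), was 0.090, 0.071, 0.273, 0.446 and 0.476. Intron 3 of GAS5, a non-coding snoRNA host (chr1:173835345-173835665), went from 0.120 to 0.477, and intron 6 of SNHG1, another one (chr11:62620312-62620546), from 0.137 to 0.478. Intron 6 of HEATR1, a ribosome biogenesis factor (chr1:236758974-236759132), went from 0.153 to 0.498, and intron 2 of SRSF10, an SR-like splicing regulator (chr1:24304764-24305142), from 0.132 to 0.477. These 5 were thus just under the threshold at 60 min. The 171 members with a loss had a median length of 599 nt, and the 231 with a gain one of 1242 nt.

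Next to the threshold, MACROH2A1 (a histone variant gene), ECHS1 (a mitochondrial enzyme of fatty acid breakdown) and RPL7L1 held members at 0.499, 0.4997 and 0.4998. The nearest introns outside were in PSMA4 (a proteasome subunit) at 0.5003, ADSL (an enzyme of purine synthesis) at 0.501 and ZNF142 (a zinc finger gene) at 0.501.

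Members were shorter, richer in GC and closer to both gene ends than other introns. Median length was 958.5 nt against 1441 nt in all other introns, and 18 members (2.80%) had 10000 nt or more, against 9.14%. Median GC was 46.8% against 41.3%, and 262 members (40.8%) reached 50% GC, against 19.9%. The authors' distance to the transcription start site (TSS) had a median of 5593 nt against 18345 nt, and the distance to the polyadenylation site one of 7728 nt against 23126 nt. The range within the members was wide. Lengths ran from 19 nt in NPIPB3, 63 nt in RPL8 and 70 nt in GUK1 to 35427 nt in GUSBP18, 43052 nt in ARIH1 and 86961 nt in EIF4G3.

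Part of each difference was shared by the whole slow class and by the genes themselves. The other slow introns had a median GC of 44.0%, a TSS distance of 9968 nt and a polyadenylation-site distance of 13911 nt, between the members and the rest, but their length, 1449 nt, matched the rest. The 2666 other introns of the 441 host genes had a length of 1025.5 nt and a GC of 45.7%, near the members, and distances of 10863 and 13564 nt.

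**Figure D2:**
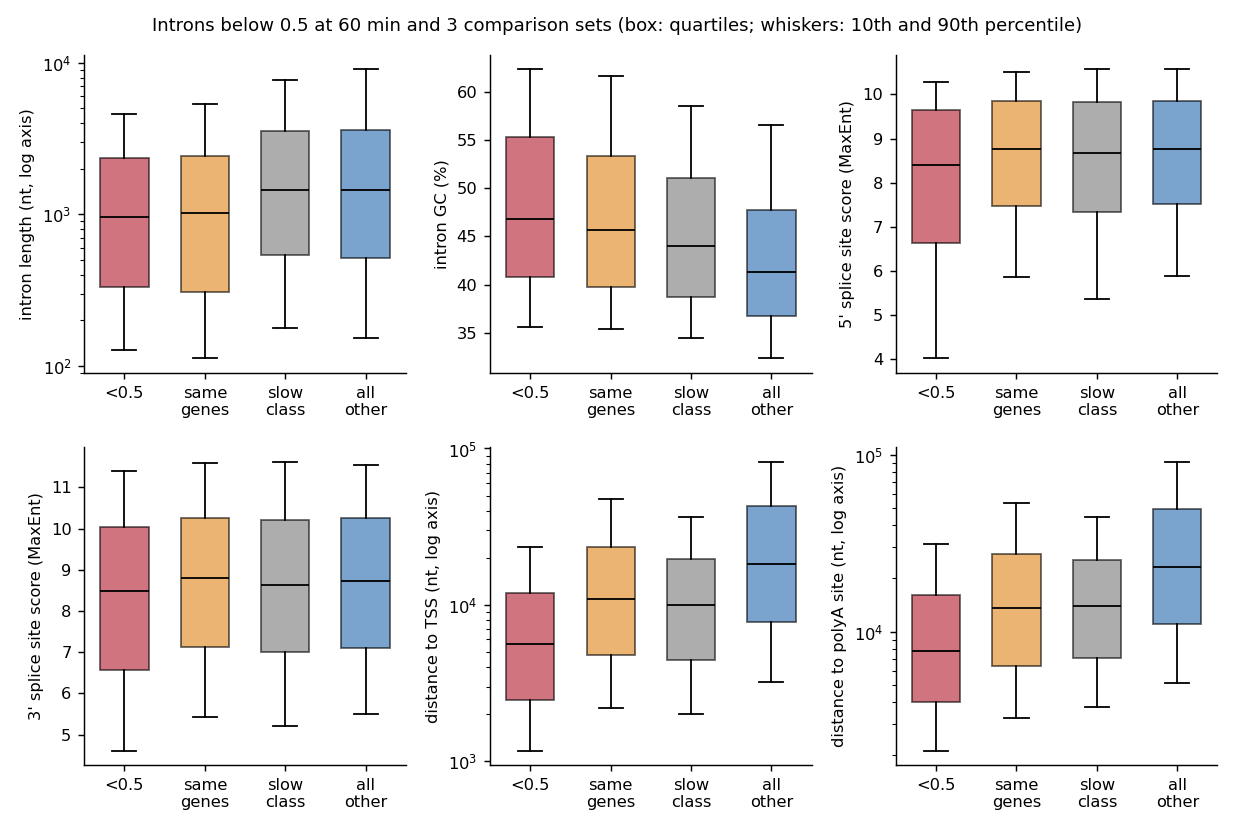
Length (nt), GC (%), MaxEnt scores and distances to the TSS and polyadenylation site (nt) of the introns below 0.5 at 60 min, the other introns of their genes, the other slow introns and all other introns (line: median; box: quartiles; whiskers: 10th and 90th percentiles; log axes where marked). The same-gene introns resemble the members in length and GC but not in the 5′ score, whose lower whisker is lowest in the members.

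The 5′ sites of members scored lower than those of other introns, and the 3′ sites differed mainly in the share of very low scores. The median 5′ score was 8.39 against 8.76, the upper quartile 9.64 against 9.85, and 59.0% of members lay below the median of the others. The median 3′ score was 8.49 against 8.73, and 52.8% of members lay below the median of the others. The 95% Wilson interval of that share, 48.9% to 56.6%, treats introns as independent. Introns of the same gene are not, so the interval is no test of a difference. A 5′ score below 5 was found in 90 members (14%) and in 6.23% of the others, and a 3′ score below 5 in 83 members (12.9%) and 7.39% of the others. A score below 0 at either site, which is far from any usual splice site, occurred in 27 members (4.21%) and 0.833% of the others. At the other end, 208 members (32.4%) scored at least 8 at both sites, against 42.3%, so a strong pair of sites was common among members too.

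Set beside the other introns of their own gene, members most often had the lower 5′ score, and GC and the distance to the polyadenylation site leaned the opposite way from the pooled comparison. This comparison could be made for 572 members of 390 genes. The 5′ score was below the median of the gene-mates in 342 members (59.8%), with a median difference of -0.58, and the 3′ score in 327 (57.2%), with a median difference of -0.60. With 1 member per gene the 3′ share was 53.6% (209 of 390). Length was below it in 290 members and above it in 282. GC, higher in members when all introns were pooled, was below the gene-mates' median in 313 (54.7%) and above it in 259, with a median difference of -0.58 percentage points. The distance to the TSS was below it in 282 and above it in 290, and the distance to the polyadenylation site was below it in 254 and above it in 318. Theta at 30 min was below the gene-mates' median in 565 of the 572. It lies on the same course as the 60 min value that separates members from gene-mates, so this count only describes the choice.

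A separate annotation, GENCODE 29, lists transcripts of the class retained intron, and members were spanned by them several times as often as other introns. Introns were matched to it by gene and exact length, which placed 619 members. A retained-intron transcript spanned 156 of these (25.2%), against 4.0% of 20556 other introns placed in the same way, 9.1% of the other slow introns and 6.8% of the other introns of the host genes. Short introns are spanned more often, so the shares were also read by length. Between 150 and 500 nt the share was 40.8% of 147 members against 11% of the others. Between 500 and 1000 nt it was 28.3% against 3.87%, and between 1000 and 3000 nt it was 10.9% against 1.51%. Below 150 nt it was 66.7% of 63 members against 13.5%, and from 10000 nt on it was 0 in both. 

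**Figure D3:**
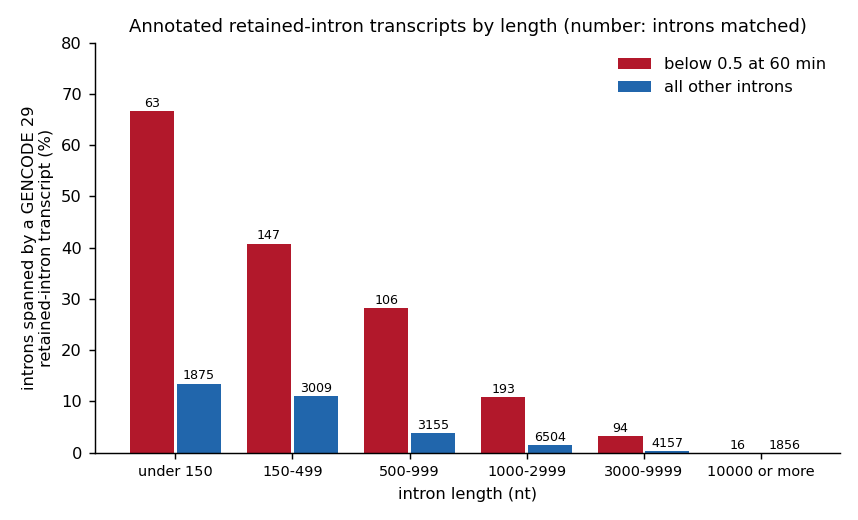
Percent of introns spanned by a GENCODE 29 retained-intron transcript, by intron length (nt), for the introns below 0.5 at 60 min and all other introns; the number above a bar is the number of introns matched. The members' bar is the taller one in each of the 5 length groups below 10000 nt.

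Alternative use of a splice site was frequent. In 137 members (21.3%) a splice site was shared with another listed intron, against 6.02% of the others. In the authors' alternative class for psi, a spliced-in share that they give for each listed intron, were 133 members (20.7%), against 5.07% of the others. The other slow introns and the other introns of host genes lay in between. A site was shared in 11.2% and 10.6% of them, and 9.53% and 7.80% were in the alternative class. Introns that share a site share reads, so their theta values are not separate measurements. Small nucleolar RNAs are cut out of introns, and 34 members (5.30%) contained one in the authors' annotation, against 0.605% of the others. The share was 1.40% in the other slow introns and 1.28% in the other introns of host genes. Put the other way, 34 of the 162 snoRNA introns in the table (21.0%) were members. Long non-coding RNA genes held 40 members among their 155 listed introns (25.8%), and protein-coding genes 595 among 21482 (2.77%).

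A minority of the introns next to a member were members too. There were 660 pairs of a member and a listed intron directly next to it across 1 exon, and in 147 of them (22.3%) the neighbour was a member. Pairs that join 2 members count from both sides, and the 583 distinct neighbours held 127 members (21.8%). Among all pairs of a member with any other listed intron of its gene, the share was 15.2% (676 of 4454). Of all listed introns of host genes, 19.4% (642 of 3308) were members, near the share among neighbours. The neighbours of the other introns of host genes were members in 7.61% of 3431 pairs. For members the share was 23.2% on the upstream side and 21.4% on the downstream side. Without introns that share a splice site, the downstream share was 18.3% (46 of 252). Median theta at 60 min of a member's neighbours was 0.662, and that of other introns' neighbours 0.856. Most hosts nevertheless had 1 member only, 319 of 441, with 76 hosts at 2 and 46 at 3 or more. In the 390 hosts with other listed introns, the median over hosts of their other introns' theta was 0.762, where the rule keeps each of these introns at 0.5 or more. Of the 2666 introns, 29.1% were in the slow class, against 13.2% of the introns of genes without a member.

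CDK16 had a single member. It was at 0.392, 0.194, 0.150, 0.121 and 0.149, while the other 12 introns ended between 0.573 and 0.864. Intron 6, just upstream, ended at 0.864, and intron 8, just downstream, at 0.573, the lowest of the 12. SRSF5 kept a pair of neighbours, introns 6 (chr14:70235614-70235898) and 7, at 0.385 and 0.167, and its 7 other introns ended between 0.653 and 0.809. These 2 introns flank an exon whose inclusion was not examined here.

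SAT1, the rate-limiting enzyme of polyamine breakdown, had 3 members that share sites with each other around 1 alternative exon. They lie at chrX:23802001-23802410, chrX:23802001-23803444 and chrX:23802521-23803444, and theta at 60 min was 0.139, 0.141 and 0.132. All 3 fell to between 0.026 and 0.034 at 30 min, the time at which the gene's first intron reached 0.866. The 4 other introns ended between 0.793 and 0.924.

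**Figure D4:**
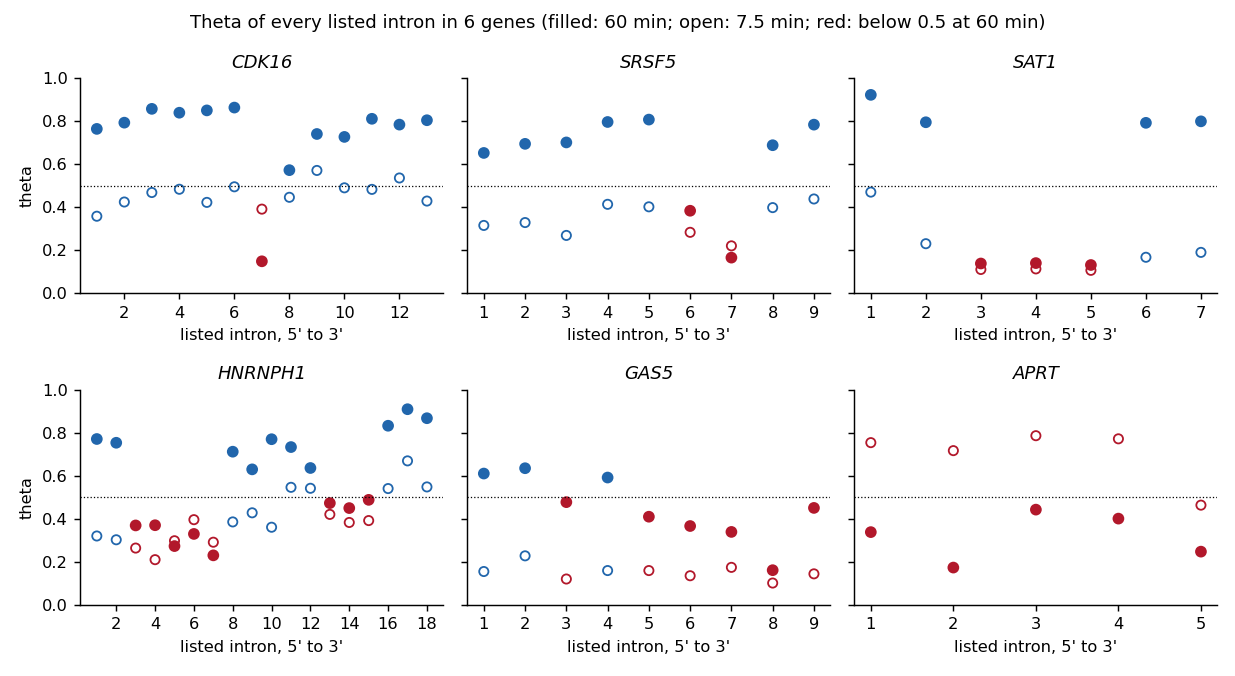
Theta (vertical axis, 0 to 1) of every listed intron of 6 genes, numbered from the 5′ end; filled points are 60 min, open points 7.5 min, red points the introns below 0.5 at 60 min and blue points the others. CDK16 has 1 low intron among 13, SRSF5 and SAT1 have low introns side by side, and in APRT all 5 fall between the 2 times.

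HNRNPH1, a splicing regulator that binds G-rich RNA, had the most members, 8 of 18 listed introns. In the listed order, introns 3 to 7 formed an unbroken run at 0.230 to 0.370, and introns 13 to 15 a second one at 0.450 to 0.488. The 10 others lay between 0.630 and 0.910. Intron 5 (chr5:179046409-179047892) lies only a short stretch upstream of intron 7, so intron 6 overlaps one of them or lies within that stretch. The run is therefore not a count of consecutive separate introns, and overlapping introns can share reads. Intron 7 (chr5:179045325-179046269) was the lowest. GAS5 had 6 of 9, from 0.161 in intron 8 (chr1:173833645-173833812) to 0.477 in intron 3, and its 3 other introns were not far above, at 0.592 to 0.635. GNAS, the gene of a stimulatory G-protein subunit, had 6 of 15, all at its 5′ end: introns 1 to 6 ended at 0.368 to 0.499 and introns 7 to 15 at 0.754 to 0.936. Introns 2 to 6 of GNAS share sites around 1 alternative exon.

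In TMEM106C, a transmembrane protein gene, all 6 listed introns were members, at 0.224 to 0.364. APRT had all 5 of its listed introns below the threshold, at 0.173 to 0.443, after 0.463 to 0.786 at 7.5 min. CHTOP, an mRNA export factor, had 5 of 6, at 0.248 to 0.386, after a first intron (chr1:153606820-153609047) at 0.825. DMKN, EIF3K, HM13 and SNHG29 also held 5 members each.

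The lowest value of all was in the only listed intron of H2BC12, a histone gene of a family whose mRNA mostly has no introns (chr6:27106461-27114187, 7727 nt). Theta there was 0.095, 0.083, 0.034, 0.026 and 0.021. Next came intron 9 of XIST, the non-coding RNA of X inactivation (chrX:73042052-73045949), at 0.087, and its intron 11 at 0.124. Both were nearly flat over time, between 0.068 and 0.131. RPL8 intron 5, 63 nt long with a 5′ score of -18.39, was at 0.105, and NPIPB3 introns 1 and 2, with 5′ scores of -2.43 and -9.93, were at 0.113 and 0.153. NPIPB3 belongs to a family of near-identical copies, so its reads could have come from several loci. The lengths and scores of the RPL8 and NPIPB3 introns are far from those of usual introns, and whether the junctions are real splicing events was not tested.

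Gene lists put the members in context. Among SR proteins and CLK kinases, which regulate splicing, 11 of 104 listed introns were members, in 8 of 16 genes, beside 2.95% over all introns. They included SRSF5 intron 7, SRSF10 intron 1 at 0.227 (chr1:24301568-24305202) and SRSF1 intron 3 at 0.306 (chr17:56082962-56083161). Among genes known for detained or regulated introns, 15 of 160 introns were members, in 6 of 18 genes: HNRNPDL, HNRNPH1, MAT2A, RBM39, SRSF5 and SRSF7. MAT2A makes S-adenosylmethionine, and its intron 8 (chr2:85770158-85770792), known as regulated by that product, was at 0.117 at 7.5 min and 0.265 at 60 min. OGT, another gene of that list, had none, with its 18 introns at 0.716 to 0.944.

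The snoRNA hosts had 34 members among 113 introns, in 10 of 17 genes. ZFAS1 intron 4 (chr20:47897108-47897439) was at 0.245, and SNHG5 introns 1 and 3 were at 0.187 and 0.233. Ribosomal protein genes had 23 of 301, in 18 of 64 genes, among them RPS2 intron 2 at 0.205 (chr16:2013258-2014276). Nuclear long non-coding RNAs had 6 of 15 introns, in XIST, JPX and OIP5-AS1. Core spliceosome proteins had 4 of 320 (1.25%), in SF3A2, SNRNP70 and U2AF1, a share below that of all introns.

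The host genes were then examined by transcript abundance, in libraries the rule did not use. The authors' TPM split each gene into mature (spliced) and primary (unspliced, whole-locus) RNA. The median unspliced share, primary as a percent of both, went in hosts from 28.3% ± 1.54 at 7.5 min to 18.9% ± 2.10 at 45 min (SD over libraries, n = 3). In the 3719 tested genes with listed introns but no member it went from 34.0% ± 0.866 to 14.2% ± 3.11. Hosts therefore started lower and ended higher. The primary value counts the whole locus only: isoforms with 1 retained intron are part of mature TPM, so this measure can miss the members themselves.

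The ratio of primary to mature TPM between 45 and 7.5 min was tested with limma on a log2 scale over 13906 genes (Benjamini-Hochberg threshold 0.05). It was higher at 45 min in 51 of 441 hosts (11.6%), against a background of 1.96% of all genes tested and 1.72% of the listed genes without a member. It was lower in 211 hosts (47.8%), against a background of 53.5% and against 78.8% of the listed genes without a member. The median log2 change was -0.80 in hosts, -1.45 over all genes and -1.66 in the listed genes without a member. Relative to the median gene of each library, 170 hosts were higher (38.5%, background 10.7%) and 21 lower (4.76%, background 11.1%). The counts are descriptive, since genes are not replicates.

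The 5 hosts with the largest increases of the ratio were ATP5MF, KRTCAP2, METTL26, PCBD1 and APRT. For ATP5MF the unspliced share was 0.447%, 1.26% and 0.662% at 7.5 min and 13.3%, 13.3% and 11% at 45 min (log2 change 4.28 ± 0.43 SE, limma adjusted p = 0.000114). APRT had 18.3%, 15.3% and 14.6%, then 61.6%, 40.9% and 47.4% (2.39 ± 0.39, limma adjusted p = 0.000616). KRTCAP2, a subunit of the complex that adds N-glycans, had 5.99%, 7.18% and 3.64%, then 36.7%, 22.4% and 30.1%, a log2 change of 2.86. METTL26 went from 5.80% to 12.4% up to 36.5% to 42.1%. PCBD1, an enzyme of tetrahydrobiopterin recycling, had 14.7%, 13.7% and 14%, then 27.1%, 87.8% and 29.8%, with 45 min replicate 2 far above the rest. Its limma adjusted p of 0.033 did not pass the threshold in any fit that left out 1 of the 7.5 min replicates, with 0.073 as the highest value.

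The 5 hosts with the largest decreases were SNHG1, HOXB3, CCND2, EIF4A2 and SMAD6. SNHG1 was 82.6%, 75.2% and 80.9% unspliced at 7.5 min and 25.2%, 21.7% and 28.0% at 45 min (log2 change -3.57 ± 0.32 SE, limma adjusted p = 0.000101). EIF4A2 went from 63.1%, 49.3% and 51.6% to 13%, 12.9% and 13%, and CCND2, a cyclin, from 70.5%, 65.4% and 59.3% to 15.9%, 17.2% and 22.3%. The 2 groups did not overlap in any of the 3 genes, which were named for their large changes. A lower ratio was called in 53.5% of all genes tested, and the share of all genes without overlap was not counted. SMAD6, an inhibitor of BMP signalling, lost its call (limma adjusted p = 0.016) without 7.5 min replicate 3 or 45 min replicate 1, where the highest value was 0.064. Relative to the median gene, SNHG1, CCND2 and EIF4A2 remained lower, at -2.09, -1.58 and -1.54, each past the threshold of limma. On that scale the change of SMAD6, -1.43, had a limma adjusted p of 0.217, and that of HOXB3, a homeobox factor, one of 0.054.

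**Figure D5:**
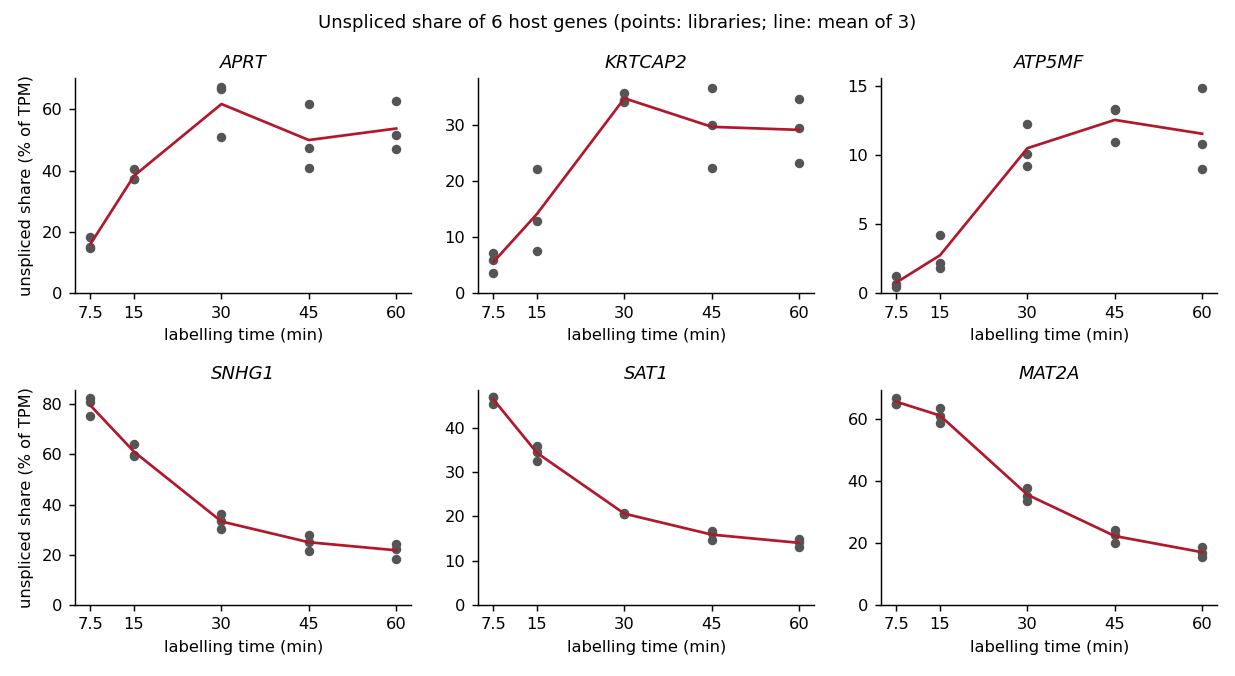
Unspliced share (primary as a percent of primary plus mature TPM) in each labelled library (points) and the mean of 3 (line) against labelling time in minutes for 6 host genes; each vertical axis starts at 0 and has its own scale. In APRT, KRTCAP2 and ATP5MF the 45 min libraries lie above all 7.5 min libraries, and in SNHG1, SAT1 and MAT2A below them.

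Among the hosts of the 10 lowest introns, SAT1, CDK16, XIST and NPIPB3 had a lower ratio at 45 min, with log2 changes of -2.20, -1.32, -1.25 and -0.98. Their limma adjusted p-values were 0.000101, 0.0025, 0.0099 and 0.035, and the call of NPIPB3 was lost without any 1 of the 7.5 min replicates or 45 min replicate 1 (up to 0.118). Relative to the median gene of each library the direction did not hold for CDK16 (0.15), XIST (0.22) and NPIPB3 (0.49), with limma adjusted p-values of 0.721, 0.705 and 0.215, while SAT1 stayed lower (-0.73, limma adjusted p = 0.043). Values for H2BC12 (-0.49, limma adjusted p = 0.31) and RPL8 (0.37, limma adjusted p = 0.48) did not pass, although RPL8 passed relative to the median gene (1.84, limma adjusted p = 0.012). SAT1 was 47.0%, 45.6% and 47.0% unspliced at 7.5 min and 14.6%, 16.8% and 16.3% at 45 min, and over the same times theta of its 3 members lay between 0.026 and 0.125.

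Mature TPM on the scale log2(TPM + 1) was higher at 45 min in 47 hosts (10.7%, close to the background of 9.44% of 16815 genes) and lower in 68 (15.4%, background 3.81%). The largest decreases were in ATP5MF, PCBD1, RPS29, COX7C and RPL35, genes of the ATP synthase, the ribosome and the respiratory chain besides PCBD1. RPS29 had 810, 755 and 1130 TPM at 7.5 min and 129, 117 and 166 TPM at 45 min (log2 change -2.69 ± 0.20 SE, limma adjusted p = 2.9e-05). The largest increases were in SNHG1, HOXB3, MAT2A, SRSF6 and SAT1. MAT2A had 99.2, 67.8 and 76.3 TPM, then 455, 287 and 370 TPM, a log2 change of 2.17, and SAT1 had 335, 194 and 259 TPM, then 1170, 743 and 872 TPM, a log2 change of 1.82. None of these 3 genes had overlapping groups. They were named for their large changes, and the share of all genes without overlap was not counted. The call of HOXB3 was lost without 7.5 min replicates 2 or 3 or 45 min replicate 2 (limma adjusted p up to 0.063), and that of PCBD1 without any 1 of the 7.5 min replicates (up to 0.089). With median-ratio scaling 23 hosts were higher (background 4.58%) and 101 lower (background 5.98%). Without 7.5 min replicate 2 the 47 became 28, and without 7.5 min replicate 3 the 68 became 45. Over all 16815 genes the first of these fits called 983 higher, and the second called 330 lower. These comparisons and the theta values at 7.5 min come from the same labelled libraries, so they are side by side and not separate evidence.

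In total RNA, which holds mostly older molecules, hosts had little unspliced RNA. The median unspliced share of hosts was 1.09% after poly(A) selection, 1.75% after RNase H depletion and 1.47% after Ribo-Zero depletion. The listed genes without a member had 1.37%, 2.16% and 1.67%, higher in each of the 3. Individual hosts went beyond this: CHTOP had 5.30%, 10.2% and 9.40%, SNHG1 5.0%, 9.02% and 8.59%, and SAT1 7.43%, 5.50% and 7.84%. APRT had 1.82%, 2.86% and 3.32%, after 40.9% to 61.6% in labelled RNA at 45 min. The 3 libraries differ in method and are not replicates.

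The authors' deposited table of gene scores placed hosts among the abundant genes. Hosts also had a median of 6 listed introns per gene, against 3 in genes without a member. A gene with more listed introns can more easily hold a member, and introns were listed only above a minimum of reads. The part of this in the abundance of hosts was not tested. The median score for copies per cell was 1.14 in hosts and 0.778 in the listed genes without a member, and the cytoplasmic against nuclear score was 0.04 and 0.02. Hosts with different courses of theta had different medians of several scores. In the authors' deposited table the cytoplasmic against nuclear score had a median of 0.28 in the 108 hosts whose members all lost at least 0.1 from 7.5 to 60 min, and of -0.13 in the 153 hosts whose members all gained at least 0.1. Of these 108 hosts, 75.9% lay above the median of the listed genes without a member, and 31.4% of the 153 did. The polysomal against cytosolic score in the authors' deposited table followed the same order, at 0.37 and -0.11. The score for copies per cell in the authors' deposited table was 1.36 and 0.963, with 95.4% and 65.1% of hosts above the median of the listed genes without a member. The degradation score in the authors' deposited table was -0.57 and -0.07, with 9.26% and 59.5% above that median, and it was computed from the labelled libraries. The localization and polysome scores came from other libraries than the labelled ones, per the file headers, and no test was made because the classes were drawn from the theta values.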

How the data were processed

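The authors deposited TPM from RSEM 1.2.11 with Bowtie 1.0.1 (hg19), per the submitters' processing notes, on GENCODE 19 with 1 whole-locus isoform added per gene, per the file headers. Theta and psi are fractions that the authors computed with bam2ssj, kept above 5 reads in all 3 replicates and averaged, per the file headers; their aligner is not named in any source used, and depth is unknown. The deposited intron table holds GC as a fraction, lengths and distances in log10 nt, a polypyrimidine and a branch-point score by SVM-BPfinder, and MaxEnt splice-site scores. The authors' deposited gene scores are centred; their localization and translation values come from other libraries. The deposited number of transcripts per intron was not used.

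Members and lists were chosen with earlier results of these data known. Features were compared by medians and counts, without a test. Host genes were tested with limma 3.58.1 in R 4.3.3 (empirical Bayes with a trend) on 12 labelled libraries, leaving out the 60 min ones that chose the members: log2((primary + 0.1)/(mature + 0.1)) where mature TPM averaged 1 or more and primary TPM 0.1 or more, and log2(mature TPM + 1). The scripts were tested on simulated data. Introns were matched to GENCODE 29, of another build, by gene and unique exact length; no coordinates were moved. Splice-site letters come from GENCODE 29 transcripts, whose intron GC equalled the deposited GC in 1200 of 1201 introns. Named introns were the 10 lowest, those next to the threshold, the 5 largest gains and losses, the 3 longest and shortest, the genes with most members and up to 4 per list; named hosts were the 5 largest called changes in each direction and the hosts of the 10 lowest introns. Other genes were chosen after their values were seen. Some items that these rules name are not reported here.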

Additional observations from a re-analysis of the deposited data

How the results depend on the processing

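Of 99 alternative values, 84 stayed within the 95% Wilson interval of the share or within 1.5 times the count, and 15 did not. The 84 include a setting that kept only introns with all 5 labelling times. It removed no intron (642 of 21782 were members again), so its values could not move. With a threshold of 0.4 on theta, 1.15% of introns were members; 63.3% of these had a 5′ score below the median of the others (59.0% at 0.5), 67.3% a higher GC (72.3%), 87.6% a shorter TSS distance (84.9%), 98.4% were below 0.5 at 45 min, 45.0% had a higher theta at 60 than at 7.5 min (54.2%), so that fewer than 50% gained, and 31.1% a retained-intron transcript (25.2%). Without introns that share a splice site, 2.48% were members and 76.6% of them had a higher GC. The alternatives on the GENCODE 29 share and on gene-mates were chosen after seeing the data.

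With centred ratios, 170 hosts were higher and 21 lower. For mature TPM, median-ratio scaling gave 23 hosts higher; leaving out 1 library gave 28 to 43 higher (28 without 7.5 min replicate 2) and 45 to 68 lower (45 without 7.5 min replicate 3). For the ratio, it gave 38 to 51 higher and 182 to 213 lower. Over all genes tested, these fits called 169 to 315 higher and 6476 to 7556 lower for the ratio. For mature TPM they called 949 to 1276 higher and 330 to 700 lower. The labels share the letters A to C over times, and same-letter libraries deviated together weakly (r = 0.113, 0.033 and 0.063 for the ratio, 0.233, 0.056 and 0.087 for mature TPM). For libraries of different letters r was -0.070 to 0.013 for the ratio and -0.155 to 0.083 for mature TPM. The labels do not say whether the letters pair the libraries, and the main fits left them out. With a replicate block 54 hosts were higher and 230 lower for the ratio, beside 300 higher and 7780 lower of all 13906 genes tested. For mature TPM 73 hosts were higher and 93 lower, beside 2500 higher and 959 lower of all 16815 genes. The block thus raised the calls over all genes too. The cause of these shifts was not tested.

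Theta has no replicate values and no depth, introns of a gene or with a shared site are not independent and near-identical gene copies cannot be told apart.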

Other observations

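Other deposited features of the members stood as follows beside all other introns. The branch-point score had a median of 1.09 against 0.704, and the polypyrimidine score 28 in both. The other introns of host genes had a median branch-point score of 0.936. Beside the median of their gene-mates, 284 of 572 members had a lower branch-point score and 285 a higher one. The upstream exon was 121.5 nt long at the median against 132 nt, and the downstream exon 133 nt against 137 nt. Exon GC was 53.3% upstream and 50% downstream in members, against 47.6% and 45.8%. In the other introns of host genes it was 50.9% and 49.9%. Of the members matched to GENCODE 29, 38% were the first intron of a transcript and 43.0% the last intron of one, against 30.0% and 32.9% of the others. In the other introns of host genes these shares were 35.9% and 42.7%, so the last-intron share of members was near that of their own genes. In the other slow introns they were 35.9% and 37.4%.

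The share of introns below 0.5 at 60 min also differed between chromosomes. It was 6.80% on chromosome 20 (41 of 603 introns) and 5.64% on chromosome 19 (81 of 1436), and it was 0.539% on chromosome 8 (3 of 557), 0.612% on chromosome 13 (3 of 490), 0.752% on chromosome 2 (9 of 1197) and 0.778% on chromosome 4 (4 of 514). Introns of the same gene are not independent, and GNAS and HM13, each with several members, lie on chromosome 20.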
